A study of Mus musculus with 235 samples.

Results

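Gene expression was compared between punches of the dorsal hippocampus labelled dCA1 and dDG, taken here as dorsal CA1 and dorsal dentate gyrus, in vehicle-treated mice. The vehicle columns of both regions were taken from the count table and paired by animal, which gave 30 libraries of the 235 in the series, 1 dCA1 and 1 dDG library from each of 15 animals. All were male C57Bl/6 mice with an age of 3 months that had received an intraperitoneal injection of saline 4 h before tissue was taken. The series also holds mice given dexamethasone, a synthetic glucocorticoid, at 10 mg/kg for 4 h. The paired dCA1 and dDG libraries of 13 dexamethasone animals, and the vCA1 and vDG (ventral) punches of 14 vehicle animals, were used to see where the dorsal vehicle comparison differs. Brains had been perfused, and each region was punched from coronal sections, so a punch holds every cell type within its reach. In such bulk samples, fewer cells of a type and less RNA per cell cannot be told apart.

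The hippocampus is built of fields with distinct principal cells. Granule cells fill the dentate gyrus and send mossy fibres to the pyramidal cells of CA3, which in turn project to the pyramidal cells of CA1. The dorsal dentate gyrus and CA3 lie next to the ventricles, whose choroid plexus secretes cerebrospinal fluid and is the main source of transthyretin (Ttr) in the brain. The fibroblast-bearing membranes of the velum interpositum run beneath the dorsal hippocampus, above the thalamus and the habenula.

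Library totals ranged from 297943 to 1451422 counts (median 704675) in dCA1 and from 388915 to 1197849 (median 631113) in dDG. RNA integrity number (RIN) averaged 6.28 ± 1.17 (SD, n = 15) in dCA1 and 5.95 ± 1.23 (SD, n = 15) in dDG. The dCA1 library of replicate 4 had a RIN of 4.2 and the highest summed level of the astrocyte list, 16078 CPM (counts scaled to a common library size). The authors' own table for dCA1 leaves this library out. Without replicate 4 the comparison below gave 145 genes in place of 120. No pair of libraries within a group agreed within sampling noise (smallest chi-square per degree of freedom 1.70).

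Few genes differed between dCA1 and dDG. Of 8573 genes tested with edgeR, with the animal as a block, 120 passed an adjusted p of 0.05, which is 1.4% of those tested. Of these, 56 were higher in dCA1 (0.653%) and 64 were higher in dDG (0.747%). The balance of directions moved with the method: DESeq2 called 78 higher in dCA1 and 54 higher in dDG, and with no filter on low counts 165 and 320 were called. The changes toward dDG were the larger ones, with a median size of 0.83 on the log2 scale against 0.47 toward dCA1. More than 1 log2 unit separated the punches for 26 genes higher in dDG and for 1 gene, Bok, higher in dCA1. The median log2 fold change of all tested genes was -0.00. Restricting the comparison to the 9 animals whose column names in both regions carry a prefix before the region left 17 genes, all among the 120, with 2 higher in dCA1 and 15 higher in dDG. The columns without a prefix are those of library plate 4, so this fit leaves out replicates 5, 6, 7, 9, 10 and 12.

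**Figure D1:**
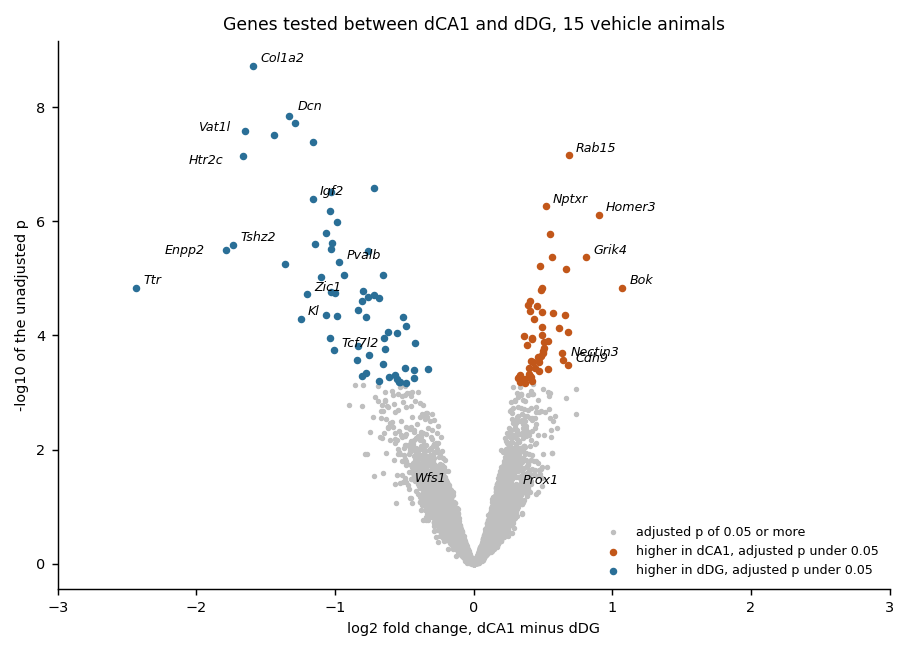
Each point is 1 of 8573 genes, with the log2 fold change of dCA1 minus dDG on the x axis and the -log10 of the unadjusted p (edgeR, animal as block) on the y axis. Genes passing an adjusted p of 0.05 are coloured by direction, and the field markers Prox1 and Wfs1 lie among the grey points.

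None of 14 tested genes of a dentate granule cell list passed the test, and 12 of 14 had a positive log2 fold change, that is a higher level in dCA1 (median 0.31). Prox1 (ENSMUSG00000010175), the transcription factor that specifies granule cells, ranged from 279 to 677 CPM in dCA1 (median 518) and from 64.8 to 882 CPM in dDG (median 417). The ranges overlapped, and the log2 fold change was 0.30 ± 0.15 (SE, adjusted p = 0.422, higher in dCA1 in 10 of 15 animals). C1ql2, a secreted C1q-like protein of mossy fibre terminals, lay between 112 and 289 CPM in dCA1 and between 5.63 and 302 CPM in dDG. All 15 dCA1 libraries held more than 100 CPM of C1ql2, against 9 of 15 dDG libraries.

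None of 9 tested genes of a CA1 pyramidal cell list passed the test either, and 7 of 9 were negative, toward dDG (median -0.14). Wfs1, which encodes an endoplasmic reticulum membrane protein abundant in CA1 pyramidal cells, ranged from 9.72 to 90.8 CPM in dCA1 and from 15.0 to 149 CPM in dDG (log2 fold change -0.47 ± 0.22, adjusted p = 0.406). The dDG libraries of replicates 1 and 2 were the lowest in dentate genes and the highest in Wfs1. They held 64.8 and 161 CPM of Prox1, 5.63 and 41.9 CPM of C1ql2, and 104 and 149 CPM of Wfs1. With 1.4% of all genes called, lists of 14 and 9 genes without a call are near the background and are no result about the fields by count. What the levels show is that dentate and CA1 transcripts overlapped between the punches, so the labels are not borne out by their markers. The 2 groups are called by their labels in what follows.

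**Figure D2:**
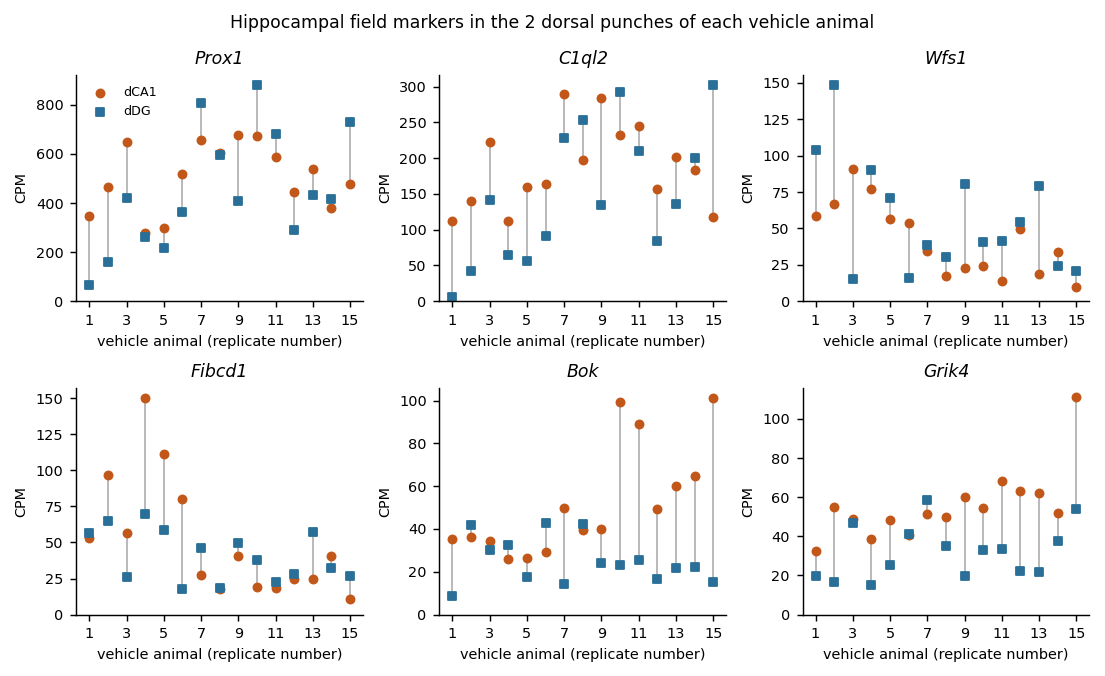
CPM of 6 field markers in the dCA1 (circles) and dDG (squares) library of each vehicle animal, joined by a line, with the replicate number on the x axis. Circles and squares overlap for the dentate genes Prox1 and C1ql2 and the CA1 genes Wfs1 and Fibcd1, and circles lie mostly above squares for the CA3 genes Bok and Grik4.

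The field genes that did pass were markers of CA3, and all were higher in dCA1. Of 6 tested genes of a CA3 pyramidal cell list, 3 passed the test, Bok, Grik4 and Nectin3, and 6 of 6 were positive (median 0.51, against a median of -0.00 over all genes and 0.653% of all genes called toward dCA1). The list holds 10 measured genes, of which 4 did not pass the filter on low counts. Of these, Coch was at a median of 1.88 CPM in dCA1 and 8.38 CPM in dDG, against the direction of the tested genes. Iyd, Prss35 and Slc9a4 were at 4.15, 4.15 and 6.95 CPM in dCA1 and at 2.10, 1.15 and 4.55 CPM in dDG. Bok, a member of the Bcl-2 family, ranged from 25.8 to 101 CPM in dCA1 (median 39.9) and from 8.45 to 42.6 CPM in dDG (median 23.0). The 3 highest dCA1 libraries were replicates 10, 11 and 15, at 99.4, 89.2 and 101 CPM, above every dDG library. Bok was higher in dCA1 in 11 of 15 animals (log2 fold change 1.07 ± 0.21, adjusted p = 0.00362). In the animals with prefixed columns the call was lost at a like size (1.09, adjusted p = 0.0766). The size of its difference varied with the date of punching: its mean was 0.40 and 0.37 on dates 1 and 3, and 1.51 and 1.86 on dates 4 and 5.

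Grik4, which encodes a high-affinity kainate receptor subunit of mossy fibre synapses, ranged from 32.7 to 111 CPM in dCA1 (median 51.9) and from 15.3 to 58.3 CPM in dDG (median 32.8). It was higher in dCA1 in 13 of 15 animals, by 0.81 ± 0.14 on the log2 scale (adjusted p = 0.00146). Nectin3, a cell adhesion protein, ranged from 36.2 to 153 CPM in dCA1 and from 22.7 to 74.3 CPM in dDG. Its log2 fold change was 0.65 ± 0.16 (adjusted p = 0.0263, 11 of 15 animals), and the call was lost without replicate 7, 12 or 14 (adjusted p of at most 0.0793), with RIN as a covariate (0.0827), with no replicate block (0.0765) and in the animals with prefixed columns (0.195). The other 3 tested members, Cpne4, Spock1 and Dkk3, had log2 fold changes of 0.37, 0.28 and 0.08 and did not pass. The summed CA3 list was higher in dCA1 in 10 of 15 animals, and reached its maximum of 875 CPM in replicate 15, whose dDG library held 258 CPM, the lowest of the dDG group.

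Promoters are shown for 3 called genes, Bok for CA3, Kl for the choroid plexus and Col1a2 for fibroblasts. Their promoter windows, from 250 bases before to 50 after the start site, were read from RefSeq on GRCm38.p6 and are printed 5′ to 3′ with matches to CCAAT and GGGCGG on either strand in capitals.
Bok, chr1:93685325-93685624, plus strand: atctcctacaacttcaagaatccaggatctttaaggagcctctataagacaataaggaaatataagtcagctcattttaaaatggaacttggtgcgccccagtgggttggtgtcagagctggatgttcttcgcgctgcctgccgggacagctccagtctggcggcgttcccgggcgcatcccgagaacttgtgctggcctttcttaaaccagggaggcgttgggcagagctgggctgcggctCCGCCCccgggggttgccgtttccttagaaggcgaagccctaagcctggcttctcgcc
Kl, chr5:150952357-150952656, plus strand: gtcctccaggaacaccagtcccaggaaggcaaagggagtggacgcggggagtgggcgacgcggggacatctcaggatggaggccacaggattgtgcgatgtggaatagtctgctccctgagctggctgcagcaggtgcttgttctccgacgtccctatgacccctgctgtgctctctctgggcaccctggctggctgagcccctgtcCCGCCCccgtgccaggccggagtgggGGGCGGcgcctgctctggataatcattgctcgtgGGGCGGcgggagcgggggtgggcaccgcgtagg
Col1a2, chr6:4505368-4505667, plus strand: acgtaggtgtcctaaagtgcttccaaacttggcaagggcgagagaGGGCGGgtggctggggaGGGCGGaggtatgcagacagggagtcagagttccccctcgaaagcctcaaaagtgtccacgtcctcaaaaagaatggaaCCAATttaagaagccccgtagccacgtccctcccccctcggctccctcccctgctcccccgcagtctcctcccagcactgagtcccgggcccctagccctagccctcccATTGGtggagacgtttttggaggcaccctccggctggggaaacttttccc

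Col1a2 held 2 matches to CCAAT and 2 to GGGCGG, Kl held 3 to GGGCGG, and Bok held 1 to GGGCGG. Of 32851 promoter windows of this length, 37.4% held CCAAT and 35.7% held GGGCGG on either strand. Neither TAATCC, present in 7.06% of windows, nor CAGATG, present in 17.2%, was found in them. A match describes the letters only.

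Of the 56 genes higher in dCA1, 53 belonged to none of the 20 marker lists, and 8 were higher in dCA1 in all 15 animals. Rab15, a small GTPase of endosomal recycling, had the smallest p, with 110 to 268 CPM in dCA1 (median 177) and 76.6 to 146 CPM in dDG (median 110.5). The ranges overlapped between the groups, but Rab15 was higher in dCA1 in 15 of 15 animals, by 0.68 ± 0.10 on the log2 scale (adjusted p = 7.81e-05). Homer3, a postsynaptic scaffold protein, ranged from 15.0 to 55.5 CPM in dCA1 and from 5.63 to 26.9 CPM in dDG, and was also higher in 15 of 15 animals (0.90 ± 0.14, adjusted p = 0.00047). Its exons overlap those of Ddx49 on the other strand over 25.4% of their length, and whether counting used strand is not given in the sources used here. Nptxr, the neuronal pentraxin receptor, rose by 0.52 ± 0.08 (adjusted p = 0.00039) and Rnf182, a ubiquitin ligase, by 0.55 ± 0.09 (adjusted p = 0.000856), each in 15 of 15 animals. Exons of Nptxr overlap those of Npcd on the same strand over 17.2% of their length, and Npcd had 0 counts. In the animals with prefixed columns the calls of Homer3, Nptxr and Rnf182 were lost (adjusted p of 0.0532, 0.0639 and 0.109). With the choroid plexus covariate those of Homer3 and Rnf182 were lost (0.19 and 0.0838), and Rab15 and Nptxr kept theirs.

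Npy2r, a receptor for neuropeptide Y, was higher by 0.66, Cdh9, a cadherin, by 0.68, and Frzb, a secreted Wnt antagonist, by 0.68. With no replicate block these 3 calls were lost (adjusted p of 0.256, 0.160 and 0.164), as they were in the animals with prefixed columns (0.201, 0.502 and 0.231). The choroid plexus covariate ended all 3 as well (0.115, 0.182 and 0.106). Without replicates 6, 13 and 14 the Npy2r and Cdh9 calls were lost (0.107 and 0.148). The Cdh9 call was also lost when any 1 of 7 animals was left out (adjusted p of at most 0.0957). It was lost too with RIN as a covariate (0.114) and with the dentate list level as a covariate (0.155). Ak4, a mitochondrial adenylate kinase, was higher by 0.67 in 15 of 15 animals. The Ak4 call was lost in the animals with prefixed columns (adjusted p = 0.054) and with the choroid plexus covariate (0.173). Gldc, an enzyme of the glycine cleavage system, was higher by 0.64, and the call was lost without replicate 5, with no replicate block (adjusted p = 0.0733), in the animals with prefixed columns (0.242) and without replicates 6, 13 and 14 (0.127). With the choroid plexus covariate Gldc was at 0.19 (adjusted p = 0.879). Trps1, a zinc finger transcription factor, and Traf3, a signalling adaptor, were higher by 0.61 and 0.57. Both calls were lost in the animals with prefixed columns (adjusted p of 0.231 and 0.0639) and with the choroid plexus covariate (0.36 and 0.229). The lncRNA gene 2900052N01Rik was higher by 0.54. Its call was lost in both of these fits (adjusted p of 0.13 and 0.606). It was also lost without replicates 6, 13 and 14 (0.103) and with the dentate list level as a covariate (0.0533). Camk2a, the kinase of excitatory synapses, was higher by 0.47 in 13 of 15 animals (adjusted p = 0.0253).

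The choroid plexus genes Ttr and Enpp2 had the largest changes among the called genes, both toward dDG. All 4 tested members of the choroid plexus list passed the test, with a median log2 fold change of -1.52, against 0.747% of all genes called in that direction. The other measured members did not pass the filter on low counts, which keeps a gene that is high in 1 group alone, so the 4 are not the whole list of 18. Ttr, the thyroxine and retinol carrier secreted by the choroid plexus, ranged from 35.6 to 10936 CPM in dDG (median 1211) and from 20.4 to 2191 CPM in dCA1 (median 124). Above 500 CPM lay 9 of 15 dDG libraries, replicates 3, 4, 5, 6, 10, 12, 13, 14 and 15, and 2 of 15 dCA1 libraries, replicates 12 and 14. The 2 dCA1 libraries came from animals whose dDG library was also high, and the remaining 6 dDG libraries overlapped the dCA1 group. The log2 fold change of Ttr was -2.44 ± 0.47 (adjusted p = 0.00362), with dDG higher in 13 of 15 animals. The Ttr call was lost with no replicate block (-2.88, adjusted p = 0.0582).

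Enpp2 (autotaxin), a lysophospholipase secreted by the same epithelium, ranged from 107 to 4489 CPM in dDG and from 68.7 to 780 CPM in dCA1. It was higher in dDG in 13 of 15 animals, with a log2 fold change of -1.79 ± 0.31 (adjusted p = 0.00123). Kl (klotho), a co-receptor for fibroblast growth factors, reached 190 CPM in dDG replicate 5 and at most 43.9 CPM in dCA1 (log2 fold change -1.25 ± 0.26, adjusted p = 0.00762). The Kl call was lost with DESeq2 (adjusted p = 0.179), in the animals with prefixed columns (0.326) and without replicates 6, 13 and 14 (0.0683). Igfbp2, a binding protein for insulin-like growth factors, had a log2 fold change of -1.10 ± 0.21 (adjusted p = 0.00255). The Igfbp2 call was lost in the animals with prefixed columns (-0.93, adjusted p = 0.242). With the choroid plexus covariate Enpp2, Kl and Igfbp2 were at -0.13, -0.14 and -0.43 (adjusted p of 0.894, 0.966 and 0.811). These genes are themselves part of the sum used as that covariate, so this fit is no separate check of their calls. Further members of the list were too sparse to test. Clic6, a chloride channel family member, exceeded 10 CPM in 9 dDG and 2 dCA1 libraries, and Kcnj13, a potassium channel, in 8 and 1. Folr1, a folate receptor, exceeded 5 CPM in 9 dDG libraries and 1 dCA1 library. For Clic6 and Folr1 the 9 dDG libraries were those above 500 CPM of Ttr, and for Kcnj13 the 8 were these without replicate 15. Summed over the list, choroid plexus transcripts ranged from 229 to 17345 CPM in dDG and from 145 to 3254 CPM in dCA1, and dDG was higher in 14 of 15 animals. A summed list of ependymal cell genes, none abundant enough to test, was higher in dDG in 12 of 15 animals.

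When the summed choroid plexus level of each library was added to the fit as a covariate, 7 genes passed, 6 of them among the 120. Ttr, which is itself part of that sum, then had a log2 fold change of 0.20 (adjusted p = 0.852). Under the same covariate Bok had a log2 fold change of 1.32 (adjusted p = 0.106) and Grik4 0.82 (adjusted p = 0.137), so their size was kept and the call was not. The dDG library held the higher sum in 14 of 15 animals, so region and covariate overlap in this fit. The part of choroid plexus tissue in the other differences was not tested.

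**Figure D3:**
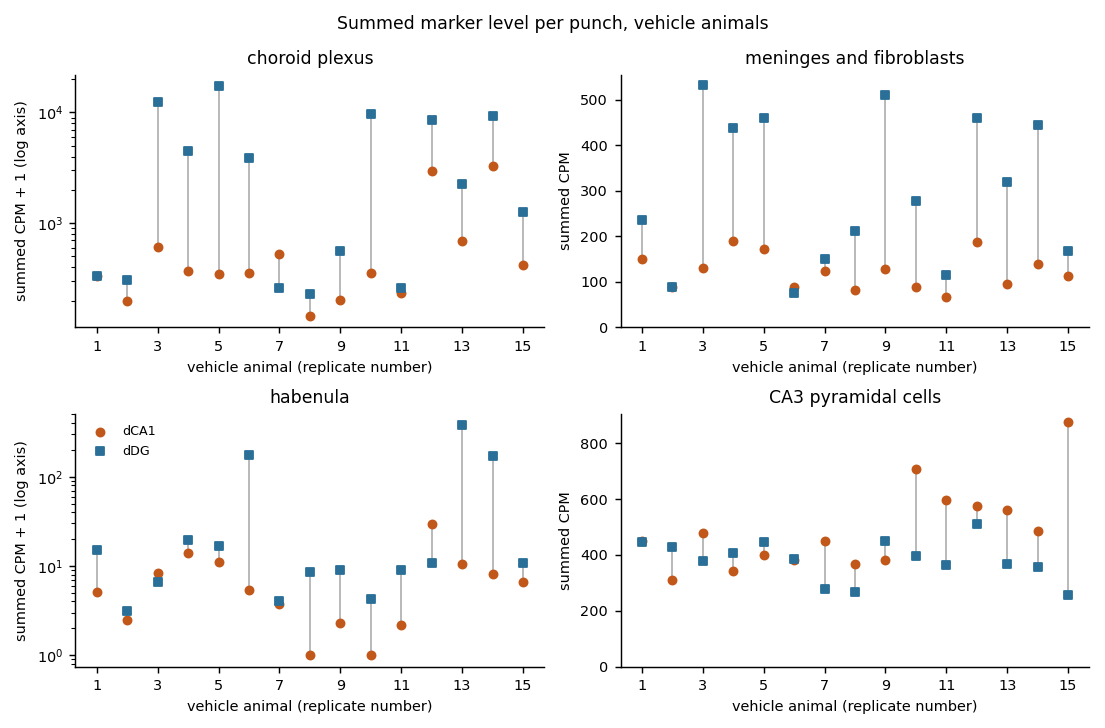
Summed CPM of 4 marker lists in the dCA1 (circles) and dDG (squares) library of each vehicle animal, joined by a line. The choroid plexus and habenula panels show summed CPM + 1 on a log axis, the other panels start at 0. Choroid plexus sums were higher in dDG in 14 of 15 animals, and habenula sums stood out in the dDG libraries of replicates 6, 13 and 14.

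Fibroblast genes were also higher in dDG. All 3 tested members of a list for meninges and fibroblasts passed (median -1.33), against 0.747% of all genes called toward dDG. Of the 7 measured members, the other 4 did not pass the filter on low counts, so the 3 are not the whole list. Col1a2, which encodes a chain of type I collagen, ranged from 9.48 to 98.7 CPM in dDG (median 33.8) and from 3.47 to 29.9 CPM in dCA1 (median 12.9). The groups overlapped, but within each of the 15 animals dDG was higher. The log2 fold change of -1.59 ± 0.19 had the smallest p of all genes (adjusted p = 1.6e-05), and Col1a2 was among the 7 genes that passed with the choroid plexus covariate, at -1.42 (adjusted p = 0.028). Dcn, the matrix proteoglycan decorin, was higher in dDG in 14 of 15 animals (-1.33 ± 0.17, adjusted p = 5.2e-05), and Igf2, insulin-like growth factor 2, in 12 of 15 (-1.16 ± 0.18, adjusted p = 0.00031). Ptgds, the prostaglandin D2 synthase of meninges, choroid plexus and oligodendrocytes, ranged from 408 to 2030 CPM in dDG and from 134 to 965 CPM in dCA1 (-1.29 ± 0.17, adjusted p = 5.2e-05). Unlike Col1a2, these 3 genes lost their calls with the choroid plexus covariate. Dcn was then at -1.09 (adjusted p = 0.106), Igf2 at -0.85 (0.322) and Ptgds at -0.95 (0.12). The Igf2 call was also lost in the animals with prefixed columns (adjusted p = 0.0532). Summed over the meninges and fibroblasts list, dDG replicates 3, 4, 5, 9, 12 and 14 held 438 to 532 CPM, and no dCA1 library exceeded 189 CPM. Replicate 9 of dDG held 509 CPM of this sum and 563 CPM of the choroid plexus list, so its fibroblast level was high where its choroid plexus level was not.

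Of 7 tested genes of a thalamus list, 6 were negative, toward dDG (median -0.14). The list holds 12 measured genes, and the others did not pass the filter on low counts. Of these, Slc17a6 was at a median of 40.6 CPM in dDG and 11.3 CPM in dCA1. Lef1, Rgs16, Synpo2 and Tnnt1 were at 7.74, 4.76, 11.1 and 2.30 CPM in dDG and at 8.31, 4.38, 11.3 and 1.88 CPM in dCA1. The summed thalamus list was higher in dDG in 11 of 15 animals, with medians of 567 CPM in dDG and 460 CPM in dCA1. The 1 gene that passed, where 0.747% of all genes were called toward dDG, was Tcf7l2, a transcription factor of Wnt signalling that marks thalamic and habenular neurons. Its log2 fold change was -1.01 ± 0.24 (adjusted p = 0.02), with 29.7 to 292 CPM in dDG (median 75.8) and 29.6 to 86.9 CPM in dCA1 (median 43.9). The 1 positive gene was Prkcd, a protein kinase C isoform of thalamic relay neurons, at 0.74 (adjusted p = 0.102). Tcf7l2 was highest in dDG replicates 6, 13 and 14, at 292, 220 and 172 CPM. Leaving out any 1 of replicates 5, 6, 13 and 14 ended the call (adjusted p of at most 0.0718), as did DESeq2 (0.104), the dentate list level as a covariate (0.134) and the animals with prefixed columns alone (0.447). Without replicates 6, 13 and 14 together Tcf7l2 was at -0.53 (adjusted p = 0.444), and with the choroid plexus covariate at -0.64 (0.731).

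The same 3 dDG libraries held transcripts of the habenula, the small nucleus at the roof of the thalamus. Tac2, the neurokinin B precursor of medial habenula neurons, was at 123, 203 and 112 CPM in dDG replicates 6, 13 and 14 and at most 17.0 CPM in the other 12 dDG libraries. Pou4f1 (Brn3a), a transcription factor of habenular neurons, was at 39.5, 111 and 38.3 CPM there and at most 8.45 CPM elsewhere in dDG. Gpr151, an orphan receptor of habenular neurons, was at 35.6 CPM in replicate 13. No dCA1 library exceeded 15.8 CPM of Tac2 or 9.01 CPM of Pou4f1. Zic1, a zinc finger factor of dorsal midline tissue including meninges and habenula, was highest in the same libraries, at 349, 615 and 329 CPM (log2 fold change over all animals -1.20 ± 0.24, adjusted p = 0.00407). Without these 3 animals 57 genes passed, 54 of them among the 120, and Zic1 did not (-0.68, adjusted p = 0.0999). Its call was also lost in the animals with prefixed columns (adjusted p = 0.0845).

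Other genes higher in dDG were high in different dDG libraries. Tshz2, a zinc finger transcription factor, ranged from 12.1 to 386 CPM in dDG (median 37.6) and was highest in replicates 1, 2 and 12, at 386, 363 and 276 CPM. The first 2 of these are the dDG libraries lowest in dentate genes, and held 36.6 and 35.6 CPM of Ttr. The log2 fold change of Tshz2 was -1.74 ± 0.30 (adjusted p = 0.00109). Pvalb, the calcium buffer of fast-spiking interneurons and the 1 called gene of 6 tested in an inhibitory neuron list, was also highest in replicates 1 and 2, at 113 and 115 CPM (-0.97 ± 0.17, adjusted p = 0.00172, where 0.747% of all genes were called toward dDG). The Pvalb call was lost with the mean dentate list level as a covariate (-0.68, adjusted p = 0.0565), with the choroid plexus covariate (0.198) and in the animals with prefixed columns (0.25). Gad1 and Gad2, which encode the enzymes of GABA synthesis in all interneurons, had log2 fold changes of -0.06 and -0.09.

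Htr2c, a serotonin receptor abundant in choroid plexus epithelium and also present in neurons, ranged from 10.2 to 330 CPM in dDG and was highest in replicates 5, 14 and 3, which are also rich in Ttr (-1.67 ± 0.23, adjusted p = 7.81e-05). With the choroid plexus covariate the Htr2c call was lost (-0.55, adjusted p = 0.652). Vat1l, a gene related to a synaptic vesicle protein, was at 75.2 to 124 CPM in dDG replicates 3, 5, 6, 10, 12, 13 and 14, each of which held over 500 CPM of Ttr, and at most 67.6 CPM in the other dDG libraries (-1.65 ± 0.22, adjusted p = 5.2e-05). Its log2 fold change was -0.76 with the choroid plexus covariate (adjusted p = 0.45). Emb (embigin), a membrane glycoprotein, and Steap2, a metalloreductase, had log2 fold changes of -1.44 and -1.36, which became -0.61 and -0.06 under that covariate. Cacna2d2, a calcium channel subunit, and Tshz2 kept theirs, at -1.24 and -2.36 (adjusted p = 0.0267 for both). The Tshz2 call was lost with the mean dentate list level as a covariate (-1.21, adjusted p = 0.0636) and in the animals with prefixed columns (-1.40, adjusted p = 0.196). Sned1, an extracellular matrix protein whose exons overlap Mterf4 on the other strand over 19.5% of their length, was higher in dDG in 14 of 15 animals (-1.14 ± 0.20). With the choroid plexus covariate the Sned1 call was lost (-1.03, adjusted p = 0.252). Exons of Tshz2 overlap those of Gm26883 on the other strand over 65.2% of their length, and Gm26883 had 0 counts.

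The other marker lists tested gave no call, which for lists of 1 to 11 genes is near the background of 1.4% called. None of 11 tested oligodendrocyte genes passed, though 11 of 11 were negative (median -0.35). None passed of 8 astrocyte genes (median 0.16), 5 microglia genes (median 0.21), 6 endothelial genes (median 0.01), 4 blood genes (median -0.19), 7 neocortical layer genes (median 0.01), 3 genes of CA2, 3 of immature neurons, 4 neuropeptide genes or 5 activity genes. The 1 tested gene of the hilar mossy cell list, Calb2, had a log2 fold change of -0.77 (adjusted p = 0.25).

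Directions within batches are given as a description, since the 120 genes were chosen for their difference in these same libraries, which largely fixes the sign in subsets of them. Of the 120 genes, 119, 115, 120 and 119 kept their direction among the animals punched on dates 1, 3, 4 and 5, and date 2 held 1 animal. Within library plates, where only 5 of 15 animals had both libraries on the same plate, 114, 105, 120 and 120 kept it on plates 1 to 4. Ttr was an exception on plate 1, where its mean difference was 0.82, against -2.44, -4.92 and -2.64 on plates 2, 3 and 4.

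The dexamethasone animals, which share no library with the vehicle animals, were compared in the same way. Of 8698 genes, 232 passed (2.67%), 171 higher in dCA1 (1.97%) and 61 higher in dDG (0.701%). All 56 genes higher in dCA1 in vehicle animals had the same direction there, and 28 passed, 50% of the vehicle list and 16.4% of the 171. Of the 64 genes higher in dDG, 61 were tested, 57 had the same direction and 8 passed. The CA3 list gave 5 calls of 6 tested genes, all higher in dCA1 (median 0.75). Bok was higher by 0.91 (adjusted p = 5.12e-05), Cpne4, a calcium-binding copine, by 0.76 and Spock1, a matrix proteoglycan, by 0.74. None of the 4 choroid plexus genes passed, and all were negative (median -0.63). Ttr had a log2 fold change of -0.94 (adjusted p = 0.495), with a range in dDG from 27.3 to 12540 CPM. Col1a2 had -0.73 (adjusted p = 0.0631). Tshz2, Htr2c and Vat1l passed there too, at -1.21, -1.09 and -0.84.

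Whether the difference between dCA1 and dDG itself differed between vehicle and dexamethasone animals was tested in 1 fit over 28 animals. None of 9375 genes passed (0%), the smallest adjusted p was 0.206, and 527 genes had an unadjusted p under 0.05. DESeq2 called 0 as well, with 354 at an unadjusted p under 0.05. With no filter on low counts 28 genes passed, 6 positive and 22 negative. With the filter, the choroid plexus calls in vehicle animals alone are therefore not shown to depend on treatment.

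**Figure D4:**
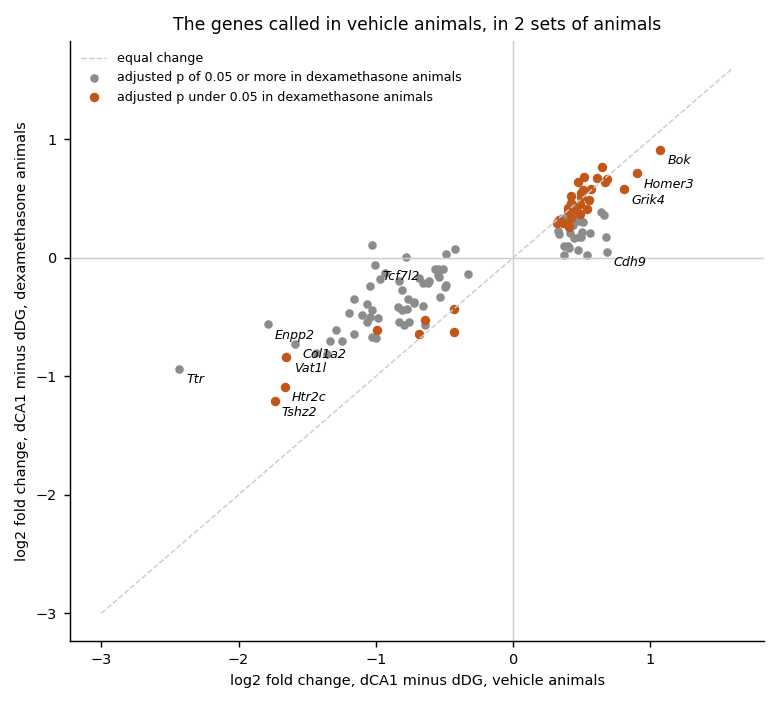
Log2 fold change of dCA1 minus dDG in vehicle animals (x axis) and in dexamethasone animals (y axis) for the called vehicle genes that were tested in both. Coloured points passed an adjusted p of 0.05 in dexamethasone animals, and the dashed line marks equal change. All 56 genes to the right of 0 lie above 0, and Ttr lies nearer to 0 in dexamethasone animals.

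In the ventral punches of 14 of these vehicle animals, genes of both field lists passed the test. Of 9141 genes, 868 differed between vCA1 and vDG (9.5%), 505 higher in vCA1 (5.52%) and 363 higher in vDG (3.97%). Of 9 tested dentate genes, 7 were lower in vCA1 (median -1.11), and of 9 tested CA1 genes 7 were higher (median 1.09). Prox1 was at 102 ± 38.7 CPM (SD, n = 14) in vCA1 and at 262 ± 139 CPM (SD, n = 15) in vDG, with a log2 fold change of -1.34 (adjusted p = 3.77e-05). Wfs1 was the exception among the CA1 genes, at -0.81 (adjusted p = 0.00278). Of 3 choroid plexus genes tested there, Igfbp2 passed, and Ttr had a log2 fold change of -0.24 (adjusted p = 0.738). Col1a2 was lower in vCA1 by a larger amount than in the dorsal pair, at -2.86 (adjusted p = 4.37e-08).

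The difference between both contrasts was tested in the 14 vehicle animals with all 4 punches, and 238 of 9565 genes passed (2.49%), 126 more positive dorsally (1.32%) and 112 more negative (1.17%). Among dentate genes 8 of 14 passed, all more positive dorsally (median 1.44). Prox1 differed by 1.59 (adjusted p = 0.00116) and C1ql2 by 2.36 (adjusted p = 0.000123). Among CA1 genes 4 of 11 passed, all more negative dorsally. Spink8, a serine protease inhibitor of CA1 pyramidal cells, differed by -3.05 (adjusted p = 0.000179). The CA3 genes Bok and Grik4 differed by 1.22 (adjusted p = 0.0178) and 1.297 (adjusted p = 0.000479). Ttr and Enpp2 differed by -3.19 (adjusted p = 0.0441) and -1.90 (adjusted p = 0.02). Col1a2 differed by 1.35 (adjusted p = 0.0372), its dorsal difference being the smaller.

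**Figure D5:**
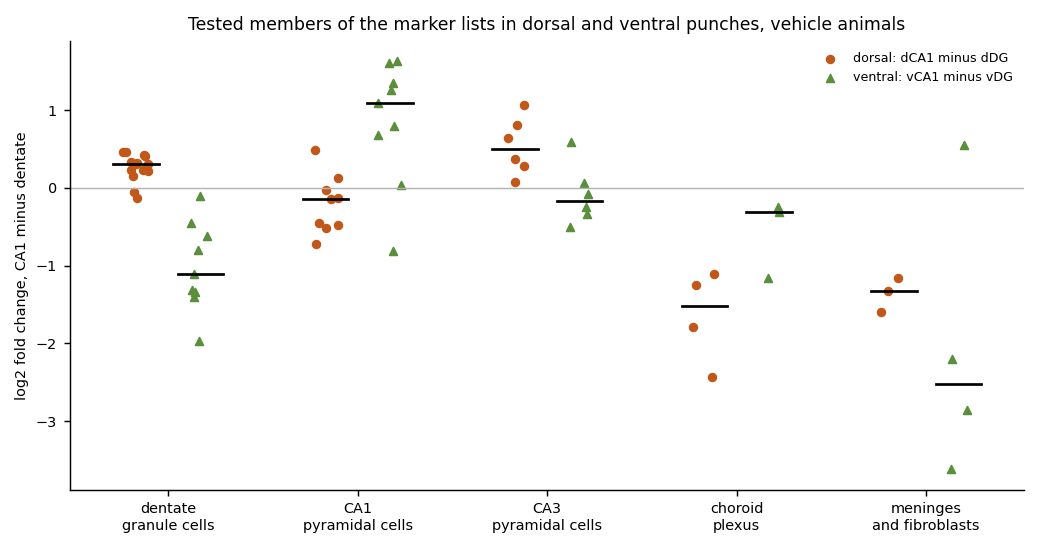
Log2 fold change of each tested member of 5 marker lists, dCA1 minus dDG (circles) and vCA1 minus vDG (triangles) in vehicle animals, with black bars at the medians. The dentate list has a median of 0.31 dorsally and -1.11 ventrally, and the CA1 list -0.14 and 1.09.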

How the data were processed

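Counts came from 3′ messenger RNA libraries (QuantSeq forward, with unique molecular identifiers) of punched tissue, 1 library per region and animal. The raw counts per gene were deposited by the authors as 1 table of 27998 genes, and values on a log2 scale, variance-stabilised, were deposited per region. The log2 tables were used only for which libraries they hold. Per the submitters' processing notes, FastQC 0.11.4, cutadapt, UMI-tools 0.5.4, STAR 2.6.0a, featureCounts 1.6.4, DESeq2 1.30.1 and R 4.0.5 were used with the build mm10. The annotation and the use of strand are not given in the sources used here. Symbols were matched for 27645 genes by identifier. Exon overlaps were read from the exon coordinates that the authors' count table gives for each gene.

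Genes passing filterByExpr by group were scaled by trimmed mean of M values (TMM) and tested with edgeR 4.0.16 quasi-likelihood fits (R 4.3.3), with the animal as a block. Within each comparison the Benjamini-Hochberg method gave adjusted p over its tested genes, and 0.05 was the threshold. SE was derived from the log2 fold change and the F statistic (size over root F). Positive log2 fold changes mean higher in dCA1 (or vCA1). Levels are CPM with TMM over all 4 hippocampal regions and both arms. Both punches carry the same animal number in the labels. Deviations of paired libraries from their group means correlated at -0.14 to 0.39 (median 0.15), above 0.1 in 11 of 15 pairs. DESeq2 1.42.0 was an alternative.

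Named genes are the 15 largest changes in each direction among called genes with at least 5 CPM in the higher group, the 5 smallest p in each direction, the 5 smallest p of the dorsal against ventral test, and members of the 20 lists. Camk2a and the 3 promoters were chosen after values were seen. A gene that this rule names is not reported here. The members and lists were chosen with earlier results of these data known. P-values measure spread between animals.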

Additional observations from a re-analysis of the deposited data

Results flagged for a closer look

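The difference between the CA1-labelled and dentate-labelled punches itself differed between dorsal and ventral tissue, by the edgeR test of that difference in 14 animals, for the 36 named genes below, with adjusted p from 1.46e-07 to 0.0468. Values are log2, dorsal minus ventral. Both contrasts use the same animals, and the dorsal one is that of the report.

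Dentate genes and other genes more positive dorsally were C1ql2 2.36, Prox1 1.59, Dsp 1.72, Plk5 1.42, Glis3 1.61, Npnt 1.74, Trpc6 1.63, Rfx3 1.47, Rasgrf2 1.08, Foxo1 1.04, Frzb 1.77, Cdh9 1.68, Npy2r 1.49, Trps1 0.94 and Rnf182 0.89. The CA3 genes Bok and Grik4 were at 1.22 and 1.297. Ogn was at 3.23, Ptgds at 1.73 and Col1a2 at 1.35.

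More negative dorsally were Spink8 -3.05, Lefty1 -2.98, Nts -3.11, Gm2115 -2.78, Ccn3 -2.28, Ndst4 -2.14, Vxn -1.96, Fezf2 -1.71, Man1a -1.69 and Nr4a1 -0.96. Ttr was at -3.19, Enpp2 at -1.90, Htr2c at -1.77, Vat1l at -1.61, Emb at -1.20 and Dcn at -1.98. No cause of these differences was tested.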

How the results depend on the processing

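For dCA1 against dDG in vehicle animals, 120 genes became 485 with no filter on low counts, 66 with at least 10 counts in every library and 54 with no replicate block, and 132 with DESeq2. Leaving out each animal gave 83 to 174 genes. Alternatives chosen after seeing the data gave 17 genes (libraries with a column prefix), 57 (without the 3 animals with habenula genes), 90 (dentate level as a covariate, 65 of them among the 120) and 7 (choroid plexus level as a covariate), under which Ttr reversed to 0.20. In dexamethasone animals 232 genes became 438 with no filter and 88 with no replicate block, and 116 to 320 when leaving out each animal (148, 116, 144 and 136 without replicates 3, 13, 14 and 15). The ventral count of 868 became 1442 with no filter. The dorsal against ventral count of 238 became 443 with no filter and 100 with at least 10 counts. The treatment count of 0 became 28 with no filter. The cause of these shifts was not tested. Of 34 named genes called between dCA1 and dDG, 34 kept their call under both other scalings and 27 with no replicate block, but only 3 kept it in all alternatives run and 31 lost it in at least 1. With prefixed columns alone 21 lost it, and with the choroid plexus covariate 28 did, beside Ttr, which reversed. Depth limits genes of a few CPM, since 3 counts are worth 2.07 to 10.1 CPM in dCA1 and 2.50 to 7.71 CPM in dDG.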
